A study of Mus musculus with 2 samples.

Results

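The 10 genes described here are Atf4 and 9 genes known as its targets or partners under amino acid stress: Ddit3, Trib3, Chac1, Asns, Sesn2, Psat1, Phgdh, Shmt2 and Mthfd2. They were taken by symbol from a deposited count table of 56791 mouse genes, and all 10 were found and had counts in both libraries. The table comes from RNA sequencing of RAW264.7, a mouse macrophage line derived from a leukaemia and labelled as wild type. IL-4, a cytokine used for M2 polarization, was added to both cultures (20 ng of the recombinant mouse protein, 24 h), and 1 culture was given 10000000 particles of FAPD10-exos, as the labels call it, at the same time. The treated group thus held 1 library with IL-4 and FAPD10-exos, and the vehicle group 1 library with IL-4 alone plus vehicle. No library without IL-4 was analysed here, and the labels do not describe the vehicle or the source of the exosomes. The study asked what FAPD10-exos does to M2 polarization. With 1 library per group, no difference below has a replicate check, no test between the conditions was possible, and every ratio describes these 2 libraries only.

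ATF4 is a transcription factor of the bZIP family at the centre of the integrated stress response. Kinases that sense missing amino acids, endoplasmic reticulum stress, double-stranded RNA or lack of heme phosphorylate the initiation factor eIF2 on its alpha subunit, which lowers general protein synthesis while the Atf4 mRNA is translated more. ATF4 then drives genes for amino acid synthesis and uptake, for the serine and one-carbon pathway, and for feedback control. Counts of mRNA, as given here, do not show how much ATF4 protein was made.

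Many ATF4 targets carry a C/EBP-ATF response element (CARE), and its core was searched as TGATGNAA and, for the other strand, TTNCATCA. The windows ran from 250 bases before to 50 bases after each gene start in RefSeq on GRCm38.p6, and all 10 genes matched, with 11 windows in all since Psat1 has more than 1 start. The core was present in 3 of the 10 genes, Chac1, Asns and Trib3, and in 3.97% of all 32851 windows of this length, or 4.51% of the 27025 genes in that table. The sequences below are shown because they carry the motif through which ATF4 is known to act, on the strand of the gene, 5′ to 3′, with the matched core in capitals. That of Chac1 is chr2:119350992-119351116 on the plus strand, with the core 193 to 186 bases before the start and in the reverse orientation. That of Asns is chr6:7693210-7693292 on the minus strand, with the core 23 to 16 bases before the start and in the forward orientation. That of Trib3 is chr2:152344028-152344057 on the minus strand, with the core at positions 15 to 22 counted from 1 at the start, in the reverse orientation.
Chac1: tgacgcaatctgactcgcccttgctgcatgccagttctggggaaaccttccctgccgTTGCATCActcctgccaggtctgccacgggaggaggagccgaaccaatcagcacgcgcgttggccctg
Asns: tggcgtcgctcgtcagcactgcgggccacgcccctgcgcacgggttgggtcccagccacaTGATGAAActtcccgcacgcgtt
Trib3: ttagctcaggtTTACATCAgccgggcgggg
A match of letters is a description and not a site of binding, and no binding data were analysed here. The windows of the other 7 genes did not hold these letters, which says nothing about sequence outside them.

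The treated library held 37196241 counts and the vehicle library 36152743. Levels are given as CPM, the counts that a gene would have if the effective size of its library were 1000000, and a gene was called measured if its average over both libraries reached 1 CPM, which left 12264 genes, among them 9 of the 10. Chac1, at a mean of 0.742 CPM, was below that level. Ratios are treated over vehicle, and ranges in parentheses are exact 95% counting intervals, which leave out all variation between cultures. Macrophage identity was checked with 10 markers, of which 9 were measured, with summed levels of 2220 CPM (treated) and 2425 CPM (vehicle), while Mertk had 0 and 2 counts. They did not move together: Adgre1, the F4/80 gene, had 247 against 90 counts and a ratio of 2.91 (2.28 to 3.75), Spi1 was 1.60-fold higher (1.54 to 1.66) and Ptprc 1.55-fold lower (1.51 to 1.60). After the correction for transcript length given below, Adgre1 was still at least 1.5-fold higher, while Spi1 and Ptprc were within 1.5-fold. Cd68 and Lyz2 were then at least 1.5-fold lower. The part of these markers in the results on the 10 genes was not tested. Markers of mesenchymal, endothelial, epithelial and skeletal muscle cells were near 0 in both libraries, and no such list summed to more than 0.731 CPM (treated) or 0.370 CPM (vehicle). The epithelial list had 0 counts, as did Col1a1, Dcn, Myod1 and Pax7.

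Of the 9 measured genes, only Atf4 reached a ratio of 1.5 in favour of the treated library, and 0 were lower by that factor. Among all measured genes 17.2% were higher and 19.9% lower by this rule. The median log2 ratio of the 9 was 0.15, against 0.01 over all measured genes. Of the 9, 8 had a ratio above 1, but 7 under scaling by median of ratios and 6 under total counts. As the median over all measured genes was above 0, at least as many of these were above 1 as below. Atf4 itself was under 1.5-fold when counts were scaled by their totals, and also after a correction for transcript length, both given below. At a 2-fold threshold, which 4.19% of measured genes passed upward and 8.64% downward, 0 of the 9 were higher and 0 lower.

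**Figure D1:**
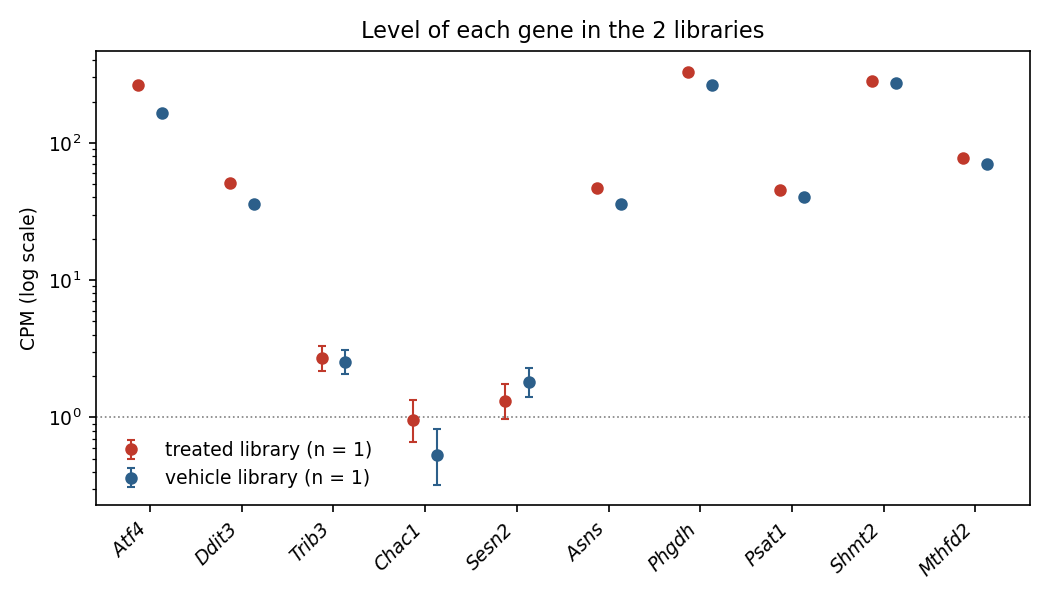
Levels of the 10 genes (CPM, log axis) in the treated and the vehicle library, 1 library each. Bars are exact 95% Poisson intervals of the count and are hidden by the point for abundant genes. The dotted line marks 1 CPM. The genes fall into 7 above 35 CPM in both libraries and 3, Trib3, Chac1 and Sesn2, below 3 CPM in both.

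The transcription factor genes Atf4 and Ddit3 both had ratios above 1, before any correction for transcript length. Atf4 had 9392 counts with FAPD10-exos and 6216 with vehicle, or 264 against 164 CPM. Its ratio was 1.60 (1.55 to 1.66), higher than that of 86.7% of measured genes. Ddit3 encodes CHOP, a bZIP partner of ATF4 that promotes cell death under long stress. It had 1813 against 1356 counts, or 51.0 against 35.9 CPM, a ratio of 1.42 (1.32 to 1.52) that lay below the 1.5-fold threshold. Per kilobase of counted exons Atf4 was 3.76 times as abundant as Ddit3 in the treated library and 3.33 times in the vehicle library. Atf4 was counted over 1 continuous block of 2358 bases, so reads from any intron inside that block would be included. In Ddit3, 4.73% of the counted exon length overlaps other genes, Mars1 among them.

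The feedback genes Trib3, Chac1 and Sesn2 were all scarce and did not go in a common direction. Trib3, a pseudokinase that binds and restrains ATF4 and CHOP, had 96 counts in each library and a ratio of 1.06 (0.792 to 1.42). Chac1, an enzyme that degrades glutathione, had 34 against 20 counts and a ratio of 1.81 (1.01 to 3.31). Sesn2, which senses leucine upstream of mTORC1, had 47 against 68 counts and a ratio of 0.734 (0.495 to 1.08). At this depth a difference was not detectable for Trib3 or Sesn2, whose intervals include 1. Small counts in this table were mostly even, 76.3% of those from 1 to 50 with FAPD10-exos and 75.1% with vehicle. Such an excess can arise where each mate of a pair is counted, which was not tested. With counts halved the interval of Chac1 was 0.781 to 4.41 and included 1.

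Asparagine synthetase, the enzyme gene Asns, was slightly higher in the treated library. It had 1667 against 1345 counts, or 46.8 against 35.6 CPM, a ratio of 1.32 (1.22 to 1.42). That ratio was above those of 72.9% of measured genes and under the 1.5-fold threshold. With counts halved its interval was 1.19 to 1.46.

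The serine and one-carbon enzymes, among them the abundant Phgdh and Shmt2, were close in level between the libraries. Phgdh, the first enzyme of serine synthesis from glycolysis, had 11587 against 9982 counts, or 326 against 264 CPM, a ratio of 1.23 (1.20 to 1.27). Psat1, the transaminase of the next step, had 1601 against 1529 counts and a ratio of 1.11 (1.04 to 1.19). Both lay near 0 in log2 after the length subtraction given below, Phgdh at 0.04 and Psat1 at 0.07. Shmt2, which turns serine into glycine in mitochondria and loads folate with its carbon, had 10079 against 10402 counts, or 283 against 275 CPM, a ratio of 1.03 (1.001 to 1.06). Mthfd2, the dehydrogenase that oxidizes this folate, had 2745 against 2648 counts and a ratio of 1.10 (1.04 to 1.16). With counts halved the interval of Shmt2 was 0.990 to 1.07 and included 1, and that of Psat1 was 1.01 to 1.23. The table also lists Phgdh-ps1, a pseudogene with 26 against 22 counts, which may share reads with Phgdh.

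**Figure D2:**
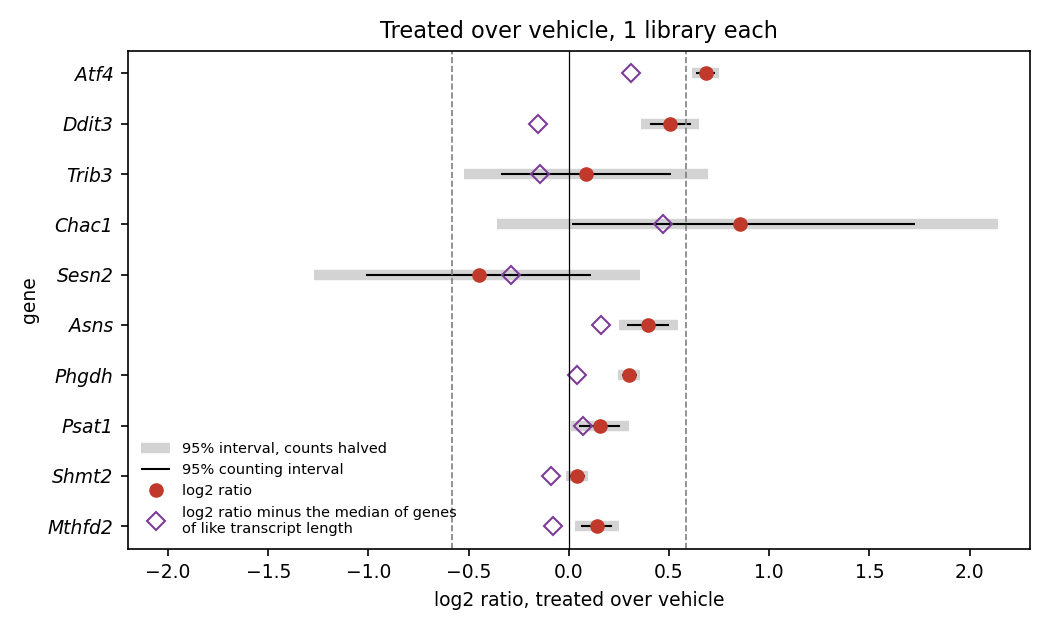
Log2 ratio of treated over vehicle for the 10 genes, 1 library each. Black bars are 95% counting intervals, grey bars the same with counts halved, open diamonds the ratio minus the median of genes of like transcript length, and dashed lines 1.5-fold. Atf4 and Chac1 lie past 1.5-fold, Chac1 with a wide interval, and 0 of the 10 diamonds do.

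Scaling moved all ratios together, by -0.13 in log2 under total counts, -0.04 under median of ratios and 0.07 under upper quartile. Under total counts 0 of the 9 passed 1.5-fold in either direction, where 12.0% of measured genes were higher and 25.1% lower. Atf4 stood at 0.55 in log2 there, just below 1.5-fold (0.58), at 0.64 under median of ratios and at 0.75 under upper quartile. Trib3, at 0.09, stood at -0.04 under total counts. Shmt2, at 0.04, stood at -0.09 under total counts and at -0.0015 under median of ratios. Atf4, Ddit3, Asns, Phgdh, Psat1, Mthfd2 and Chac1 stayed above 0 and Sesn2 below 0 under each of these scalings.

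The ratio also went with transcript length across the whole table, and the principal transcripts of the 10 genes ran from 890 to 3475 nt. Over 9911 measured protein-coding genes split into 10 bins by the length of the principal transcript, the bin of the shortest transcripts had a median log2 ratio of 0.61 and that of the longest -0.76. Genes as long as the 1725 nt transcript of Atf4 had a median log2 ratio of 0.37, so that Atf4 stood at 0.68 before and 0.31 after subtraction of that median. Ddit3, with 890 nt, is the shortest of the 10, and it went from 0.51 to -0.16. Asns went from 0.40 to 0.16, Phgdh from 0.30 to 0.04, Psat1 from 0.15 to 0.07, Mthfd2 from 0.14 to -0.08 and Shmt2 from 0.04 to -0.09. Of the scarce genes, Chac1 went from 0.85 to 0.47, Trib3 from 0.09 to -0.15 and Sesn2, with the longest transcript of the 10 at 3475 nt, from -0.45 to -0.29. After this subtraction 0 of the 9 passed 1.5-fold in either direction, where 10.2% of the measured protein-coding genes were higher and 12.1% lower. The median of the 9 was -0.08, against -0.0002 over the measured protein-coding genes. Atf4 kept the largest value among the measured genes of the set, and 4 of the 9 were above 0. With the length of the counted exons in place of the principal transcript, 6 of the 9 were above 0. Their median was 0.09, against -0.003 over all measured genes. Ddit3 then stood at 0.10 and Mthfd2 at 0.09 in log2, so the sign of both depended on the length used.

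**Figure D3:**
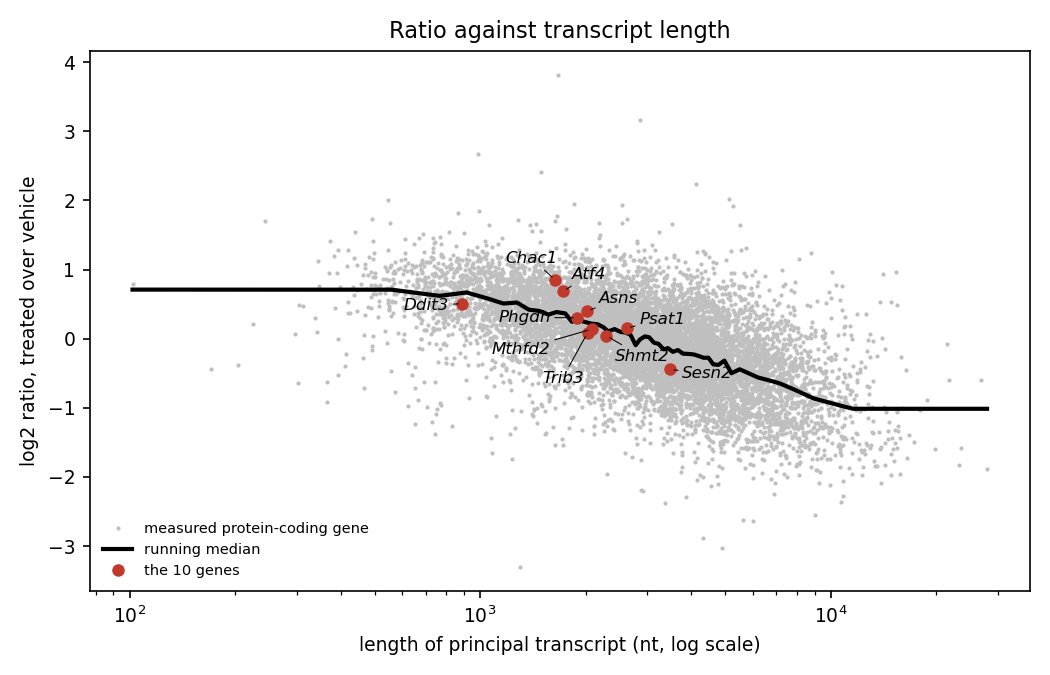
Log2 ratio of treated over vehicle against the length of the principal transcript (nt, log axis). Grey points are measured protein-coding genes, the black line is their running median, and red points are the 10 genes. The line declines with length, and Chac1 (0.47 in log2) and Atf4 (0.31) lie farthest above it.

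Per kilobase of counted exons, the order of levels in the treated library was Phgdh at 131 CPM per kilobase, Atf4 at 112, Shmt2 at 91.1, Ddit3 at 29.7, Mthfd2 at 22.1, Asns at 17.1, Psat1 at 10.6, Trib3 at 1.27, Chac1 at 0.584 and Sesn2 at 0.380. In the vehicle library Phgdh came first at 106 CPM per kilobase. There Shmt2 at 88.5 stood before Atf4 at 69.8, and Sesn2 at 0.518 before Chac1 at 0.323, and the rest kept the same order. By counting error alone, the neighbours Chac1 and Sesn2 could not be told apart in either library, nor could Ddit3 and Mthfd2 in the vehicle library. Averaged over both libraries, Phgdh ranked 500 among the 12264 measured genes by this level, Atf4 636 and Shmt2 644, whereas Trib3 ranked 9435.

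For Chac1 and Sesn2, though not for Trib3, a close relative was the more abundant form. The other cytosolic glutathione-degrading gene Chac2 had 569 against 503 counts and was 20.8 times as abundant per kilobase as Chac1 in the treated and 31.3 times in the vehicle library. Sesn1, a p53-linked sestrin, had 1334 against 1919 counts, 24.8 and 24.6 times the level of Sesn2 per kilobase. Sesn1 had a ratio of 0.738 (0.688 to 0.792), and Sesn3 had 0 against 6 counts. Among the tribbles genes, Trib1 had 22 against 16 counts and Trib2 2 against 0, both below 1 CPM. A count of 0 allows up to 3 counts, or 0.0843 CPM (treated) and 0.0794 CPM (vehicle). Of the 13 relatives in the table, 10 were measured, with 0 higher and 1 lower past 1.5-fold (17.2% and 19.9% of all measured genes). Their median was -0.08 in log2. The lower gene was Atf7, a bZIP factor related to ATF2, which had 130 against 442 counts, 3.20-fold lower (2.63 to 3.92). After subtraction of the median for transcript length, Atf7 stood at -1.03 in log2 and was still the only gene past 1.5-fold. Sesn1 then stood at -0.52, and the median of the 10 was -0.26.

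The rest of the serine, glycine and folate pathway resembled the 4 enzymes above in showing small differences. Of 23 genes, 19 were measured, and past 1.5-fold there were 0 higher genes and 1 lower gene, against 17.2% and 19.9% of all measured genes. The median was 0.32 in log2, and 0.24 after the length subtraction. There 3 were higher and 1, Mthfd2l, was lower (10.2% and 12.1% of the measured protein-coding genes). The gene past the threshold before it was Aldh1l2, the mitochondrial 10-formyltetrahydrofolate dehydrogenase. It had 579 against 1167 counts, 1.90-fold lower (1.72 to 2.10), and stood at -0.39 in log2 after the subtraction, under 1.5-fold. Gcsh of the glycine cleavage system had a ratio of 1.46 (1.37 to 1.56), the thymidylate synthase gene Tyms 1.46 (1.35 to 1.58) and Cth, which makes cysteine from cystathionine, 1.44 (1.08 to 1.93). With counts halved the interval of Cth was 0.951 to 2.20 and included 1. After the length subtraction Gcsh stood at 0.14, Cth at 0.27 and Tyms at 0.61 in log2. Psph, the phosphatase that completes serine synthesis after Phgdh and Psat1, had a ratio of 1.39 (1.29 to 1.5004). Mitochondrial Shmt2 was 14.8 times as abundant per kilobase as its cytosolic counterpart Shmt1 in the treated library and 18.2 times in the vehicle library. Mthfd2 was 79.3 and 50.5 times as abundant as its relative Mthfd2l, which had 66 against 100 counts.

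Other genes reported as ATF4 or CHOP targets differed among themselves. The table held 33 of them and 27 were measured. Past 1.5-fold there were 7 higher genes and 1 lower gene (17.2% and 19.9% of all measured genes), and the median of the 27 was 0.11 in log2. After the length subtraction 3 of the 24 genes with such a length were higher (Pck2, Cars and Aars) and 0 lower. Among measured protein-coding genes 10.2% were higher and 12.1% lower. Ero1a and Mars1, both past 1.5-fold before it, have no such length and were left out there. Under scaling by total counts 3 of the 27 were higher and 3 lower (12.0% and 25.1% of all measured genes), with a median of -0.02. The 7 were Pck2, Nupr1, Cars, Mars1, Herpud1, Cebpb and Gars, and the 1 was Ero1a. The value of Cebpb is uncertain, since 20.7% of its exon length overlaps another gene. Pck2, the mitochondrial PEP carboxykinase, had 1101 against 573 counts and a ratio of 2.04 (1.84 to 2.26), and it stood at 1.03 in log2 before and 1.40 after the length subtraction. Nupr1, a small stress-induced nuclear protein, had a ratio of 1.74 (1.61 to 1.90), and its log2 value went from 0.80 to 0.16. With the length of the counted exons in place of the principal transcript it stood at 0.51, so the size of the drop depended on the length used. Cars, the cysteinyl-tRNA synthetase, had a ratio of 1.70 (1.65 to 1.75) and went from 0.77 to 0.84. Ero1a, an oxidase of the endoplasmic reticulum that CHOP is known to induce, was 1.71-fold lower (1.62 to 1.80). After correction for the length of counted exons it stood at -0.62 in log2, still at least 1.5-fold lower, and Mars1 was still higher. Gdf15, Fgf21 and Vldlr had 0 counts in both libraries.

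Amino acid transporters linked to ATF4 had a median ratio below 1 before the length subtraction and above 1 after it. Of 11 genes 8 were measured, with 1 higher and 3 lower past 1.5-fold (17.2% and 19.9% of all measured genes), and their median was -0.38 in log2. Slc7a5, which encodes the leucine transporter LAT1, had a ratio of 1.55 (1.42 to 1.70). The cationic amino acid transporter gene Slc7a1 was 1.76-fold lower (1.67 to 1.84), the cystine transporter gene Slc7a11 1.55-fold (1.32 to 1.81) and the glutamine carrier gene Slc38a1 1.52-fold (1.45 to 1.59). These 3 have principal transcripts of at least 7179 nt. After the length subtraction Slc7a1 stood at -0.16, Slc7a11 at 0.25, Slc38a1 at 0.06 and Slc7a5 at 0.82 in log2. The list then had 2 higher and 0 lower genes (10.2% and 12.1% of the measured protein-coding genes) and a median of 0.16. Under upper-quartile scaling it had 1 higher and 1 lower (20.4% and 17.5% of all measured genes).

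Upstream of ATF4, 3 of the 4 eIF2alpha kinase genes were lower by at least 1.5-fold with FAPD10-exos, as were 19.9% of all measured genes. After the length subtraction 0 of the 4 were, and 12.1% of the measured protein-coding genes. Eif2ak4 (GCN2), the sensor of uncharged tRNA, had 775 against 1445 counts and was 1.76-fold lower (1.61 to 1.92). Eif2ak3 (PERK) of the endoplasmic reticulum was 1.55-fold lower (1.38 to 1.73), and Eif2ak2 (PKR), which is activated by double-stranded RNA and induced by interferon, was also 1.55-fold lower (1.503 to 1.60). Eif2ak1 (HRI), the heme-regulated kinase, had a ratio of 0.883 (0.823 to 0.948). Impact, an inhibitor of GCN2, was 1.76-fold lower (1.59 to 1.96). Eif2b5, a subunit of the eIF2B exchange factor, had a ratio of 1.58 (1.54 to 1.62), and the phosphatase subunit gene Ppp1r15a (GADD34), a target of ATF4 and CHOP, one of 1.04 (0.979 to 1.10). Of the 17 genes in this list, all measured, 1 was higher and 4 were lower past 1.5-fold (17.2% and 19.9% of all measured genes). The list median was -0.10 in log2. Under upper-quartile scaling 2 were higher and 2, Eif2ak4 and Impact, were lower (20.4% and 17.5% of all measured genes). Eif2ak4 was then the only kinase gene past 1.5-fold. After the length subtraction Eif2ak4 stood at -0.31, Eif2ak3 at -0.33, Eif2ak2 at -0.36 and Eif2ak1 at 0.10 in log2, and Impact, at -0.61, was still at least 1.5-fold lower. Eif2b5, at 0.56, was then under 1.5-fold. Of the 16 genes with such a length, 1 was then higher and 1 lower (10.2% and 12.1% of the measured protein-coding genes), and their median was 0.04.

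The IRE1 and ATF6 arms of the unfolded protein response were counted for comparison. Of 17 genes, all measured, 1 was higher and 5 were lower past 1.5-fold (17.2% and 19.9% of all measured genes), and the median was 0.16 in log2. After the length subtraction 2 were higher (Dnajc3 and Edem1) and 3 lower (Dnajb9, Sel1l and Mbtps2), with a median of 0.04. Among measured protein-coding genes 10.2% were then higher and 12.1% lower. Sel1l, an adaptor of ER-associated degradation, was 2.71-fold lower (2.56 to 2.88), the IRE1 gene Ern1 1.99-fold lower (1.69 to 2.36) and the site-2 protease gene Mbtps2 1.96-fold lower (1.75 to 2.20). In Mbtps2, 28.4% of the exon length overlaps other genes, so its value is uncertain. Creld2, a secreted ER stress protein, was 1.81-fold higher (1.73 to 1.89). After the length subtraction Sel1l stood at -0.87 and Mbtps2 at -0.75 in log2, while Ern1 at -0.37 and Creld2 at 0.42 were under 1.5-fold. The chaperone gene Hspa5, a target of ATF6, had a ratio of 1.24 (1.22 to 1.25).

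**Figure D4:**
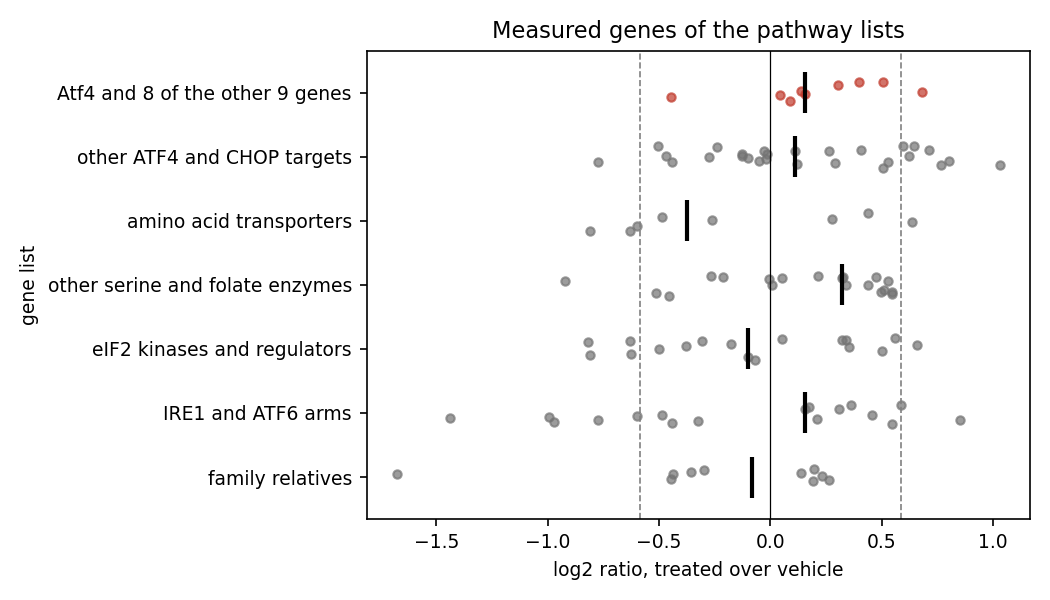
Log2 ratio of treated over vehicle for measured genes of each list, 1 library per group. Each point is a gene, black bars are list medians, dashed lines mark 1.5-fold, and the vertical scatter has no meaning. The 9 measured genes described first (red) have a median of 0.15, and Atf4 is the only red point past a dashed line.

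Positions are those of the deposited table, for which the sources used here name no mouse build. Only 1 of the 10 genes had its lowest coordinate, which is the gene end on the minus strand, within 5 bases of that in RefSeq on GRCm38. Such a mismatch can also come from the annotation. The start of Atf4 in the deposited table, 80139385, lies outside its promoter window on GRCm38.p6, 80254934 to 80255233. These positions are therefore not to be read on the build of the sequences above. Atf4 is found at 80139385 to 80141742 of chromosome 15 and Ddit3 at 127126643 to 127132157 of chromosome 10, both on the plus strand. Trib3 lies on chromosome 2 from 152179342 to 152185952, Chac1 on chromosome 2 from 119181710 to 119184862 and Sesn2 on chromosome 4 from 132219343 to 132237812. Asns lies on chromosome 6 from 7675169 to 7693254 and Phgdh on chromosome 3 from 98220486 to 98247306. Psat1 lies on chromosome 19 from 15882042 to 15924701, Shmt2 on chromosome 10 from 127352992 to 127358313 and Mthfd2 on chromosome 6 from 83282673 to 83302890. All 10 encode proteins, and their counts are sums over exons.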

How the data were processed

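The authors deposited 1 table of raw counts per gene for both libraries, whole numbers in the layout of featureCounts, and its Length column, the deposited length of the counted exons, was the other value used. The submitters' processing notes name fastp 0.23.4 and STAR 2.5.3a beside featureCounts, with GRCh38 as build, which is human although the symbols are mouse. Neither the strand setting nor the treatment of multi-mapping reads is stated there. Each column name equals a sample's description, and 0 sample columns were unmatched.

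TMM factors from edgeR 4.0.16 (R version 4.3.3) were 0.957 (treated) and 1.05 (vehicle). With 1 library per group no edgeR test could be fitted, so no p-value was computed. Ratios carry exact Clopper-Pearson 95% intervals of the treated share of both counts, which cover counting error only. A gene was called higher or lower at 1.5-fold, whatever its interval, among genes whose average reached 1 CPM. Alternatives tried were total-count, median-of-ratios (DESeq2 1.42.0) and upper-quartile scaling, no filter or one at 10 CPM, a 2-fold threshold, intervals that exclude 1, also with counts halved, 1 CPM added, and subtraction of a running median over 50 bins of exon length. Principal transcript length from GENCODE M21 was added after the data were seen, and the report gives that form.

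The members, the 6 other lists and the rules were chosen with earlier results of these data known. Named from each other list were up to 4 measured genes with the largest log2 ratio in size and at least 100 counts. Added after their values were seen were Psph, Shmt1, Mthfd2l, Chac2, Sesn1, Sesn3, Trib1, Trib2, Eif2ak1, Eif2ak3, Ppp1r15a, Hspa5, Mars1, Herpud1, Cebpb, Gars, Aars, Dnajb9, Dnajc3, Edem1, Adgre1, Spi1, Ptprc, Gdf15, Fgf21 and Vldlr. List genes under older symbols were matched by either name. On simulated counts for 12257 genes all 50 genes simulated 3-fold higher and all 50 simulated 3-fold lower were called, as were 58 of 12057 genes left unaltered. The simulated counts held counting error only, without variation between cultures or a trend with length. They therefore check the calculation and give no error rate for these data. Scripts ran in Python 3.11.15 with scipy 1.17.1, numpy 2.4.6, matplotlib 3.10.9 and pandas 2.3.3.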

Additional observations from a re-analysis of the deposited data

How the results depend on the processing

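The number of measured members at least 1.5-fold higher was 1 (Atf4). It was 0 under scaling by total counts, at a 2-fold threshold and after either length correction. With no filter it was 2, with Chac1 added, where 25.3% of all genes with a count were higher. The number lower was 0 in all 11 alternatives. The median log2 ratio of 0.15 was 0.025 under total counts, 0.30 with a filter at 10 CPM, where 7 members were left, and -0.078 after correction for principal transcript length. It lay between 0.09 and 0.23 in the other alternatives. Of the 97 measured among the 113 genes of the other lists, 10 were higher and 15 lower (17.2% and 19.9% of all measured genes). The number higher was 4 under total counts, 17 under upper quartile and 1 at 2-fold (4.19% of all measured genes). The number lower was 2 at 2-fold, against 8.64% of all measured genes. It was 8 after correction for exon length (16.5%) and 6 after that for principal transcript length (12.1% of the measured protein-coding genes). Their split between higher and lower was 4 and 22 under total counts and 17 and 10 under upper quartile. Among all measured genes 12.0% were higher and 25.1% lower under total counts, and 20.4% and 17.5% under upper quartile. No paired analysis was possible because each group holds 1 library, and for the same reason no library could be left out. Depth limits the values of Trib3, Chac1 and Sesn2, which had at most 96 counts in a library.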
